A study of Mus musculus with 30 samples.

Results

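The regions described here are Lost Esrrb peaks at promoters, binding sites of the transcription factor Esrrb near gene starts that the authors call lost in mitosis. The authors sorted their Esrrb peaks into 5 classes, of which classes 4 and 5 are headed Lost. A Lost peak was taken as a promoter peak when its centre lay within 1000 bp of a transcription start in the deposited gene table. This gave 964 of 12579 Lost peaks and of 14559 peaks in all, 583 of them in class 4 and 381 in class 5. They lie at the starts of 991 genes, which is 4.88% of the 20300 genes in the table. Of these genes, 598 have a class 4 peak only, 380 a class 5 peak only and 13 have both, while 8 also have a Bookmarked promoter peak. The members were thus chosen by measured values, the authors' class of each peak; no source used here says how the classes were drawn, but Lost refers to mitosis, so mitosis against interphase with DOX is given as a description and not tested.

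Esrrb is an orphan nuclear receptor that binds DNA as a monomer and belongs to the transcription factor network of naive mouse embryonic stem (ES) cells. Its recognition sequence extends the nuclear receptor core AGGTCA at the 5′ end, as in TCAAGGTCA. Promoters, the stretches around transcription starts, carry only a minor share of its sites, and most of its binding lies in introns and between genes. When cells enter mitosis, transcription largely stops and most factors leave most of their sites. Sites at which a factor stays on mitotic chromosomes are called bookmarked, and sites at which it is no longer found are called lost.

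The cells were EKOiE, known as an Esrrb knockout ES line of strain 129/Ola that carries an Esrrb transgene switched on by doxycycline (DOX), grown in serum with LIF. ChIP-seq of Esrrb was made from mitotic cells collected by shake-off and from asynchronous cells, called interphase here. There were 2 mitosis and 2 interphase libraries after 48 h of DOX withdrawal, and 4 mitosis and 4 interphase libraries with DOX. Replicate 2 of both DOX groups came from another ES line, E14Tg2a, in place of EKOiE. RNA-seq used EKOiE-Ccna-Gfp cells, which a Ccna2-Gfp reporter allowed to be sorted by phase (early G1, late G1, G2), with 3 libraries per phase after 24 h of withdrawal and 3 per phase with DOX. All RNA-seq cells, with DOX included, therefore share the knockout and the transgene of 1 line, and each withdrawal comparison of a phase uses that phase's DOX libraries.

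Exonic totals ran from 11.1 to 31.8 M counts and ChIP-seq totals, recovered from the deposited heights, from 10.7 to 67.5 M reads. Esrrb itself averaged 175 ± 8.11 CPM (counts scaled to library size) after withdrawal and 277 ± 0.637 CPM with DOX (SD, n = 3 each, exons, phases summed). The 7 ES cell markers had a summed level of 3955 to 5597 CPM after withdrawal and 4603 to 5842 CPM with DOX. Of 7 fibroblast or feeder markers, Col1a1, Col3a1, Postn and Lum were below the filter on low counts, and the other 3 summed to 9.03 to 14.7 CPM after withdrawal and 11.0 to 16.7 CPM with DOX. Whether replicates are separate cultures is not stated, so p-values measure only the spread between these samples, which may be technical.

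To show what the receptor's recognition sequence looks like inside these peaks, 6 promoters are printed. They are member genes with a single promoter window in RefSeq that holds TNAAGGTCA upstream of the start, at a distance from the start that the peak also spans. They were chosen after their values were seen, because no gene named by the fixed rule held that motif in its window; the windows of Ifitm7 and Ptprz1, at the highest peak of each class, hold none and are not printed. Each stretch is the motif in capitals with 60 bases on either side, 5′ to 3′ on the gene's strand, from RefSeq on GRCm38.p6. The peaks are on mm9, so peak and motif were related only by their distance from the start. Where the capitals read TGACCTTGA or TGACCTTCA, the motif lies on the other strand.
Msrb2: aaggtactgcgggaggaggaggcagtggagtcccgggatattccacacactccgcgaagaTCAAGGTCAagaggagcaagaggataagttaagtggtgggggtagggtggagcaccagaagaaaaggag
Clec2d: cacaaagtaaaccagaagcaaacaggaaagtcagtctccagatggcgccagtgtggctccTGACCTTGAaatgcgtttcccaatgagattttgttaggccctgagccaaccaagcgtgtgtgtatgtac
Oxt: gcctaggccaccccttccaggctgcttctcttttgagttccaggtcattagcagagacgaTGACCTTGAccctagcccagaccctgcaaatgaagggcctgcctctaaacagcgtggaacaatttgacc
Rrn3: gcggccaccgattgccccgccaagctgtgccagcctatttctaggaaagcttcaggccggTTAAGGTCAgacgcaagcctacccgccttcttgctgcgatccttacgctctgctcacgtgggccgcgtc
Ccl20: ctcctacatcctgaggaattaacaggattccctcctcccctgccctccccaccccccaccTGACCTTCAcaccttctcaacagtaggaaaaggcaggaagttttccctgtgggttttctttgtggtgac
Bhmt: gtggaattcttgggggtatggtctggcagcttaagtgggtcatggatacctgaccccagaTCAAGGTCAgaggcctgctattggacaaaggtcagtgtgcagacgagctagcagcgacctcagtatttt

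Msrb2, Clec2d and Oxt have class 4 peaks, and Rrn3, Ccl20 and Bhmt have class 5 peaks. The stretch of Msrb2, a methionine sulfoxide reductase, is chr2:19371457-19371585 (+), and its motif lies 119 bases before the start. The stretch of Oxt, the oxytocin precursor, is chr2:130575943-130576071 (+), with the motif 166 bases before the start and on the other strand. The stretch of Bhmt, which remethylates homocysteine, is chr13:93637765-93637893 (-), with the motif 75 bases before the start. The stretch of Clec2d is chr6:129180441-129180569 (+), that of Rrn3 is chr16:13780537-13780665 (+) and that of Ccl20 is chr1:83116532-83116660 (+).

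The mean height at Msrb2 was -0.07 in mitosis and 2.41 in interphase, both with DOX, given as log2 RPKM, reads per kb scaled to library size. At Bhmt it was -0.82 in mitosis and 0.62 in interphase. Over all genes with a promoter window (250 bases before to 50 after the start), TNAAGGTCA was found on either strand in 190 of 16262, or 1.17%. Of the 978 member genes outside chromosome 18, 778 could be matched to a window, which is 79.6%. This is under the 80% needed for a comparison over the set, so that comparison is void, and the 13 matched member genes that hold the motif are given as a count only. The peaks are mostly wider than these windows and centred outside them, so a window without the motif says nothing about the rest of the peak.

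Class 4 made up 60.5% of the Lost promoter peaks (95% Wilson interval 57.4 to 63.5%, counting error only). It made up 49.0% of the 5423 Lost peaks inside gene bodies, 57.4% of the 3972 intergenic ones within 50 kb of a start and 49.5% of the 2220 farther away. Within 500 bp of a start the share was 55.2%, 224 of 406 peaks. Class 4 promoter peaks were narrower, with a median width of 600 bp against 750 bp in class 5. Bookmarked promoter peaks, 198 in number, had a median width of 1050 bp.

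Most centres stood off the start itself. The median distance was 572.5 bp in class 4, 513.5 bp in class 5 and 681 bp at the Bookmarked promoter peaks. Only 10.5% of class 4 and 16.8% of class 5 centres lay within 250 bp, against 3.54% of the Bookmarked ones. The interval of the peak covered the start in 89 of 583 class 4 peaks (15.3%) and in 158 of 381 class 5 peaks (41.5%). Centres were upstream of the start in 61.2% of class 4, 53.0% of class 5 and 77.8% of Bookmarked promoter peaks. A broader peak covers a start more easily, and the part of width in the class 5 share was not tested.

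**Figure D1:**
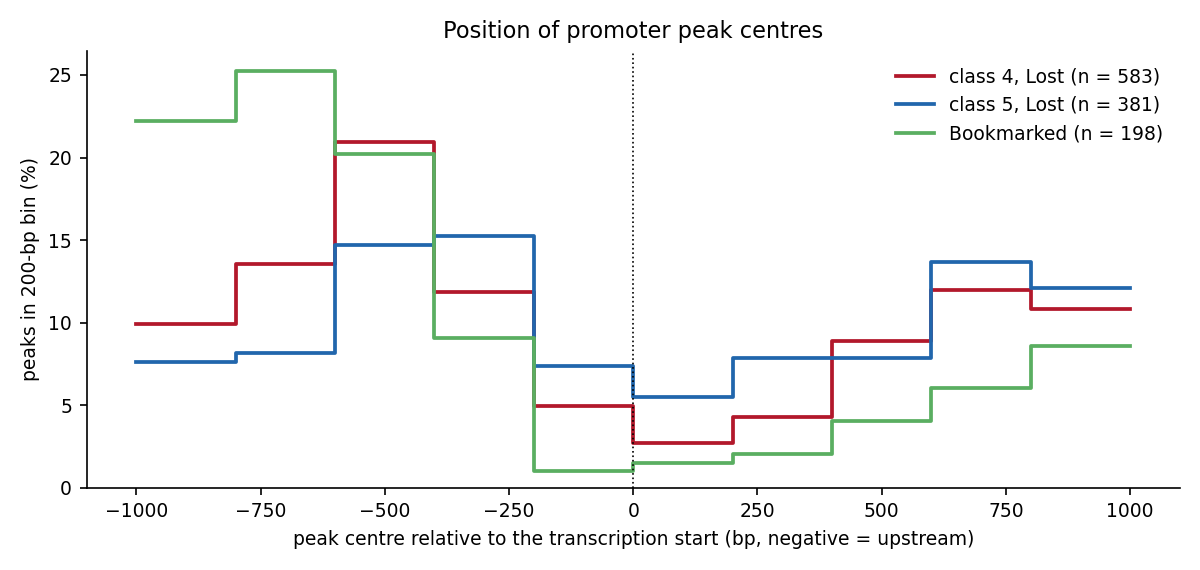
Share of peak centres (%, vertical axis) in 200-bp bins of distance from the transcription start (bp, horizontal axis, negative upstream), for Lost class 4, Lost class 5 and Bookmarked promoter peaks. In all 3 sets the 200 bp on either side of the start hold few centres, 2.74% to 4.97% per bin in class 4, 5.51% to 7.35% in class 5 and 1.01% to 1.52% in the Bookmarked set, and the bin from -600 to -400 bp holds 20.9% of class 4 centres.

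The limit of 1000 bp lies within a continuous range. The peaks just inside it belong to Fos (class 5, centre at 999.5 bp) and Traf4 (class 4, 998.5 bp). Just outside it are peaks at Fzd4 (class 5, 1000.5 bp) and Akap8 (class 4, 1002.5 bp). Mean heights in mitosis with DOX were -1.46 at Fos, -0.22 at Traf4, -0.71 at Fzd4 and 0.37 at Akap8, and in interphase with DOX they were 0.75, 2.11, 1.00 and 1.91, in the same order.

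With DOX, the Lost promoter peaks were low in mitosis and well above that in interphase, the contrast that the name Lost refers to. The median height of class 4 peaks in the 4 mitosis libraries was -0.62, 0.08, -0.13 and -0.02, against 0.99, 1.94, 1.81 and 2.71 in the 4 interphase libraries. That of class 5 peaks was -2.57, -0.82, -0.95 and -1.35 in mitosis, against -0.17, 0.73, 0.90 and 1.95 in interphase. Class 4 was thus higher than class 5 in all 8 DOX libraries, by the largest margin in mitosis replicate 1. In that library the median class 5 peak held 8 reads and 12 class 5 peaks were empty.

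The median difference of mitosis minus interphase was -2.17 over all members, -2.04 in class 4 and -2.32 in class 5, and -1.36 at Bookmarked promoter peaks. It ran from -4.00 at Csrnp1 to -0.36 at Mut. In 767 of the 964 members (79.6%) every mitosis library was below every interphase library, and among all peaks this held for 88.0%. Since the rule used these libraries, nothing is read from that share.

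**Figure D2:**
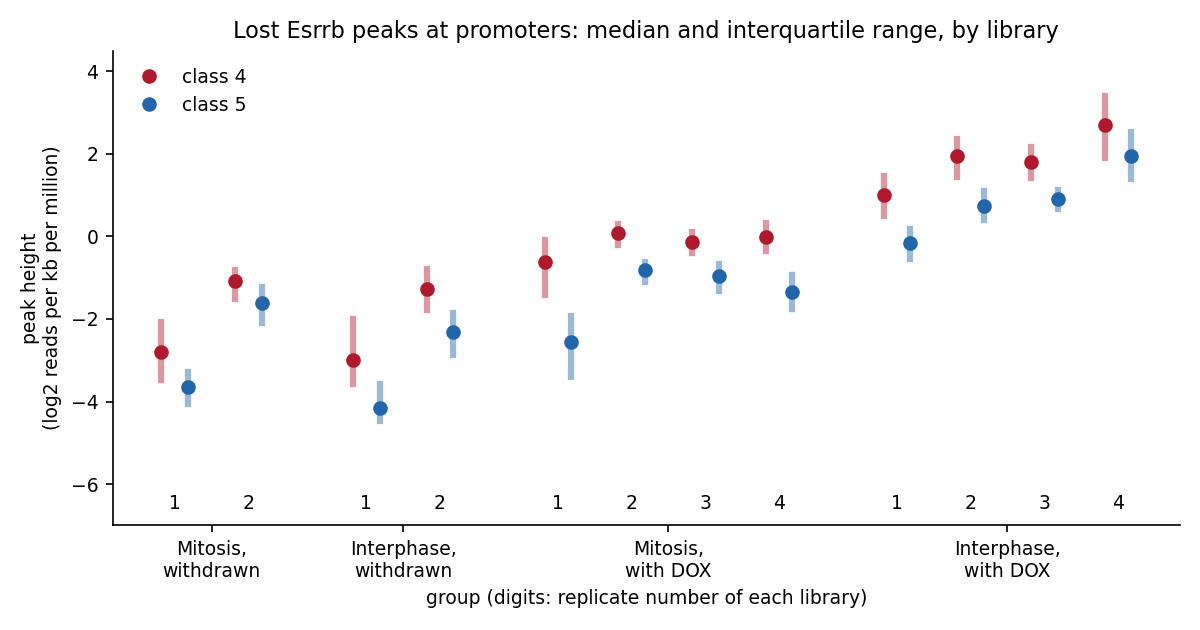
Peak height (vertical axis, log2 RPKM, reads per kb scaled to library size) in each ChIP-seq library (horizontal axis, digits are replicate numbers), with the median as a point and the interquartile range as a bar, for 583 class 4 and 381 class 5 promoter peaks. Class 4 medians lie above class 5 medians in all 12 libraries, and the withdrawn libraries numbered 1 are the lowest of each class.

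The 8 highest class 4 peaks stood near Ifitm7, Csrnp1, Notch4, Rif1, Tmem211, Nlrc3, Mag and Cbx7. The highest lies at chr16:13987351-13987950 (mm9), 690.5 bp upstream of Ifitm7, an interferon-induced transmembrane gene, and also within 1000 bp of the start of 2900011O08Rik. It had heights of -0.08, -0.21, -0.14 and -0.54 in mitosis and 2.64, 3.49, 3.39 and 4.83 in interphase, with DOX. The peak upstream of Rif1, a regulator of replication timing and DNA repair, had -0.95, 0.18, -0.14 and 0.56 in mitosis and 2.31, 3.67, 3.39 and 4.80 in interphase. Both sets of mitosis values lie below the lowest interphase value. These peaks were chosen by the Lost class and by interphase height with DOX, so nothing is read from that separation. Notch4 encodes a Notch receptor, Mag a myelin glycoprotein and Cbx7 a chromodomain subunit of Polycomb repressive complex 1, and the means of all 8 peaks lay between -0.42 and 0.17 in mitosis and between 3.41 and 3.59 in interphase.

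The 8 highest class 5 peaks stood near Ptprz1, Hspbap1, Khdc3, Gm7325, Pglyrp1, Irx4, Timp4 and Lrcol1. The peak upstream of Ptprz1, a receptor tyrosine phosphatase, lies at chr6:22824601-22825500 (mm9). It had heights of -1.37, -1.07, -0.73 and -0.54 in mitosis and 0.89, 2.58, 2.17 and 3.55 in interphase, with DOX. The peak at Khdc3, which guards genome stability in oocytes and ES cells, spans 1950 bp and had -1.69, -0.58, -0.67 and -0.35 in mitosis and 1.44, 2.37, 1.71 and 2.56 in interphase. The means of the 8 class 5 peaks lay between -2.01 and -0.66 in mitosis and between 1.83 and 2.30 in interphase. The highest class 5 peak was thus lower in interphase than each of the 8 highest class 4 peaks.

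After 48 h of DOX withdrawal the Lost promoter peaks were lower in interphase. The choice of peaks and their classes can rest on the same DOX libraries, so this fall is given as a description and not as independent evidence. The median height of the Lost promoter peaks over libraries averaged -2.14 in class 4 and -3.23 in class 5 after withdrawal, and 1.86 ± 0.70 in class 4 and 0.85 ± 0.87 in class 5 with DOX (SD, n = 4 libraries). By library, the withdrawn medians were -2.99 and -1.28 in class 4 and -4.15 and -2.31 in class 5. Withdrawn replicate 1 held a median of 1 read per member, and 277 members had no read there, so the size of the change rests partly on that floor. The median change was -3.87 in class 4 and -4.02 in class 5, -3.41 at Bookmarked promoter peaks and -3.74 over all peaks. All 964 members passed the test (limma with trend, Benjamini-Hochberg adjusted p under 0.05 over all peaks), as did 99.6% of all peaks, so the count says nothing particular of the members. Centring each library on its median peak removes this shared shift. Then 23 of 964 members fell, and 483 of all 14559 peaks were called, counting falls and rises together. Nothing particular to the members is read from that count either. At Ifitm7 the heights were -0.54 and -1.02 after withdrawal against 2.64, 3.49, 3.39 and 4.83 with DOX.

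In mitosis the median height averaged -1.94 after withdrawal and -0.18 ± 0.31 with DOX in class 4, and -2.63 after withdrawal and -1.42 ± 0.79 with DOX in class 5 (SD, n = 4 libraries). By library, the withdrawn medians were -2.80 and -1.09 in class 4 and -3.65 and -1.60 in class 5. The median change was -1.70 in class 4 and -1.14 in class 5, against -2.10 at Bookmarked promoter peaks and -1.33 over all peaks. By limma, 182 members fell and none rose, 181 of 583 in class 4 (31.0%) and 1 of 381 in class 5 (0.262%), while 22.4% of all peaks fell. Among Bookmarked promoter peaks 166 of 198 fell. The classes already differed in height in mitosis with DOX, and the withdrawal comparison uses those same libraries, so the split by class is not independent of the classes.

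The largest calls were at Stag3, Tesk1 and Zfpm1, by -3.93 ± 0.87, -3.67 ± 0.89 and -3.46 ± 1.01 (log2 change ± SE, limma adjusted p = 0.0069, 0.0102 and 0.0215). These 3 were chosen after their values were seen. The class 5 call was a peak at Mdc1, with -4.29 and -2.90 after withdrawal against -1.20, -0.62, -1.005 and -1.25 with DOX in mitosis, also named after its values were seen. Its groups do not overlap. The rule's highest peaks gave Rif1 and Ifitm7 among the calls (-2.42 and -1.96, limma adjusted p = 0.0212 and 0.0352).

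These mitosis calls depend on single libraries. The withdrawn libraries numbered 1 were nearly empty at the members, with a median of 1 read per peak in mitosis and in interphase, and 398 members had no read in the mitosis one. Without mitosis withdrawn replicate 1 no member fell, and without replicate 2 of that group 491 did. Without mitosis DOX replicate 2, 3 or 4 the count was 48, 72 and 37 in that order. Replicate 2 is of the E14Tg2a line, which has no withdrawn library, so line and DOX state are partly mixed in this comparison. Without the E14Tg2a libraries of mitosis and interphase 13 members fell. By edgeR on the recovered reads, an alternative added after seeing the data, 0 of all peaks were called (404 of 964 members and 5880 of 14559 peaks had an unadjusted limma p under 0.05).

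After withdrawal, mitosis minus interphase had a median of 0.18 in class 4 and 0.61 in class 5, and 0.19 over all peaks. No member passed (limma, 0.0% of all peaks; 10 members and 108 of all peaks at an unadjusted p under 0.05; edgeR on recovered reads 0). With 2 libraries a group, one of them nearly empty, small differences were not detectable at this depth.

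Expression was tested over exons in each phase. A fit without pairing called 22 member genes, and a fit with the replicate number as a block is given beside it, because same-numbered libraries deviated together. In bulk libraries fewer cells of a type and less RNA per cell cannot be told apart. The filter on low counts kept 897 of the 991 member genes, 90.5%, and counts below are over those.

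In early G1, 3 member genes fell and none rose after withdrawal (edgeR quasi-likelihood, adjusted p under 0.05), while 0.121% of all tested genes fell and 0.0426% rose. In late G1, 6 fell (0.277% of all genes) and 1 rose (0.185%), and in G2, 17 fell (0.632%) and 4 rose (0.341%). With the block, 48 fell and 17 rose in early G1 (2.2% and 1.83% of all genes), 89 and 36 in late G1 (4.24% and 4.8%), and 97 and 47 in G2 (5.44% and 5.77%). Falls thus made up 5.35%, 9.92% and 10.8% of the members over the 3 phases, and rises made up 1.9%, 4.01% and 5.24%. The median log2 change in G2 was -0.045 over the members and -0.013 over all genes. With the block, 42 genes fell and 14 rose in all 3 phases, out of 122 that fell and 59 that rose in at least 1. This overlap of phases was counted for member genes only, so nothing particular to the members is read from it.

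The counts without the block depend on single libraries. Leaving out any 1 library of early G1 gave 1 or 2 calls. In late G1 leaving out 1 gave 1 or 2 calls, except withdrawn replicate 1 (6). In G2 it gave 2 without withdrawn replicate 1 or 3, 4 without DOX replicate 1 or 2, 9 without DOX replicate 3 and 18 without withdrawn replicate 2. The difference in response between phases was tested as well. No member gene passed for any pair of phases, with or without the block (edgeR, all genes 0). At an unadjusted edgeR p under 0.05 there were 0.446% to 1.23% of members and 0.255% to 1.55% of all genes. With 3 libraries a group small differences can be missed, so the lack of calls does not show an equal response.

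**Figure D3:**
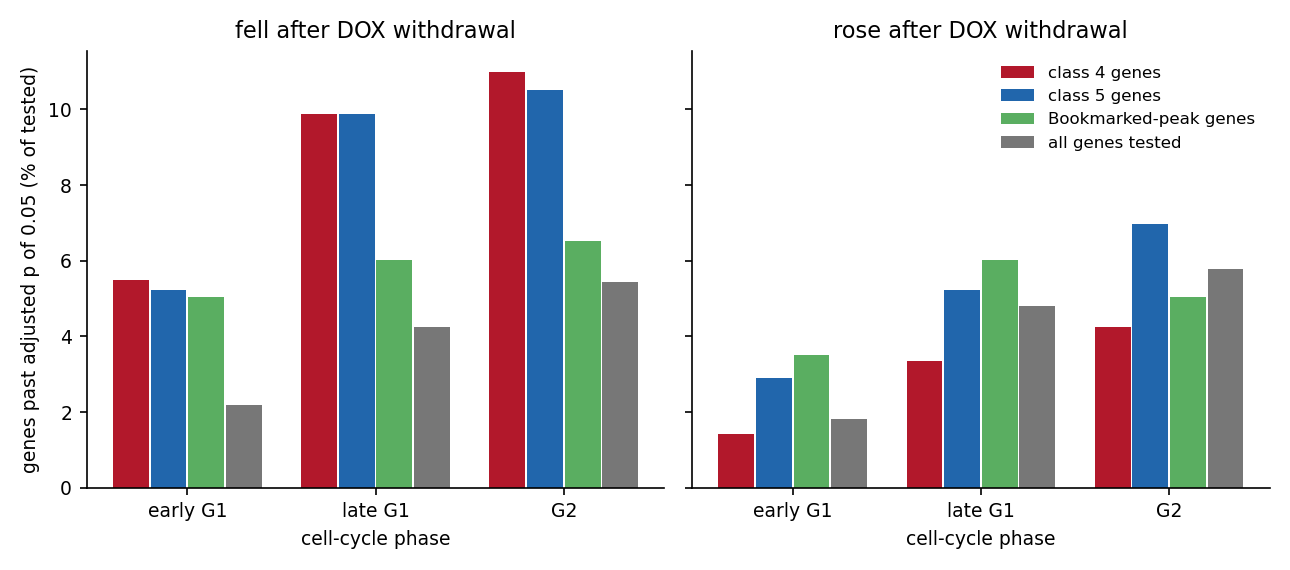
Share of tested genes (%, vertical axis) that fell (left) or rose (right) after DOX withdrawal in each phase, in the fit with the replicate block, for genes with class 4, class 5 or Bookmarked promoter peaks and for all genes tested. In G2, 11.0% of class 4 genes and 10.5% of class 5 genes fell, against 5.44% of all genes, while rises stood at 4.24%, 6.98% and 5.77% in the same order.

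With the block in G2, 62 of 566 tested class 4 genes (11.0%) and 36 of 344 class 5 genes (10.5%) fell, and 24 and 24 rose (4.24% and 6.98%). Of 199 tested genes with a Bookmarked promoter peak 13 fell (6.53%) and 10 rose (5.03%). When the genes were divided into 3 sets of 299 by interphase height, 32 fell in the lowest set (10.7%), 36 in the middle one (12.04%) and 29 in the highest (9.70%). Where the peak covered the start 26 of 226 genes fell (11.5%) and 17 rose (7.52%), and where it stood beside the start 71 of 671 fell (10.6%) and 30 rose (4.47%). These are counts side by side, and differences between these subsets were not tested.

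Pvalb, a calcium-binding parvalbumin, changed most. Summed over the phases, its level was 0.059, 0.136 and 0.172 CPM after withdrawal, against 4.72, 4.48 and 3.44 CPM with DOX. It was close to absent in every withdrawn library and low but steady in every DOX library. The log2 change was -5.09 ± 0.36 (SE; edgeR adjusted p = 0.00189), and Pvalb was the only member gene called in the summed fit without the block (0.101% of all genes fell and 0.0539% rose). It passed in each phase and with any 1 library left out. Over introns it averaged 0.199 ± 0.051 CPM after withdrawal and 1.52 ± 0.17 CPM with DOX (SD, n = 3 each), a change of -2.92 ± 0.37 with the block (edgeR adjusted p = 0.000964). Pvalb has 2 class 4 peaks, centred 889.5 bp upstream and 985.5 bp downstream of its start. With DOX the upstream peak had heights of 0.17, 0.15, -0.22 and 0.58 in mitosis and 1.20, 1.25, 1.69 and 2.21 in interphase. The downstream peak had -0.30, 0.10, -0.02 and 0.16 in mitosis and 1.53, 0.98, 2.00 and 4.34 in interphase.

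Tinagl1, a secreted matricellular glycoprotein with a class 5 peak, had 1.18, 1.26 and 1.19 CPM in withdrawn G2 cells against 5.77, 4.0 and 3.87 CPM with DOX (log2 change -1.91 ± 0.39, edgeR adjusted p = 0.0227). The groups do not overlap. Its class 5 peak covers 2100 bp around the start. Gjb5, a connexin of gap junctions, had 10.4, 13.5 and 6.99 CPM in withdrawn G2 cells against 22.4, 26.1 and 21.6 CPM with DOX (-1.18 ± 0.23, edgeR adjusted p = 0.0185), again without overlap. St14, the membrane protease matriptase, had 14.7, 20.2 and 19.7 CPM against 30.5, 32.0 and 31.2 CPM with DOX (-0.78 ± 0.16, edgeR adjusted p = 0.0227). Slc1a1, a glutamate transporter with a class 5 peak, changed by -0.99 ± 0.22 in G2 (edgeR adjusted p = 0.035). Mme, the membrane peptidase neprilysin, has a class 4 peak and changed by -0.69 ± 0.14 in G2 (edgeR adjusted p = 0.0247).

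The class 4 gene Pdk4 encodes an inhibitory kinase of pyruvate dehydrogenase and is a known ERR target. It had 4.76, 3.19 and 4.48 CPM in withdrawn late G1 cells against 10.5, 9.32 and 9.42 CPM with DOX (-1.23 ± 0.23, edgeR adjusted p = 0.0299). No withdrawn library reached a DOX one. Ddah2, which degrades methylated arginine, had 26.4, 36.4 and 27.7 CPM in withdrawn G2 cells against 61.8, 55.4 and 49.2 CPM with DOX (-0.88 ± 0.15, edgeR adjusted p = 0.00815), and also passed in early and late G1. St8sia1, a sialyltransferase of ganglioside synthesis, changed by -1.07 ± 0.18 in G2 (edgeR adjusted p = 0.00977). Aldh1l1, a folate enzyme with a class 5 peak, changed by -0.98 ± 0.20 in G2 (edgeR adjusted p = 0.0224).

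Fos, an AP-1 subunit induced by growth signals, had 15.2, 12.6 and 12.4 CPM in withdrawn G2 cells against 27.6, 25.8 and 27.1 CPM with DOX (-1.001 ± 0.20, edgeR adjusted p = 0.0224). The withdrawn values all lie under the DOX values, and its peak is the one just inside the distance limit. Zfpm1, a cofactor of GATA factors, changed by -1.55 ± 0.31 in G2 and Adrbk2, a G-protein-coupled receptor kinase, by -1.05 ± 0.20 (edgeR adjusted p = 0.0227 and 0.0185). The remaining falls were Cplx1, Lrrc34, Fam81a and Arvcf, with log2 changes from -1.70 to -0.55 in G2. Cplx1, a complexin of vesicle release, has peaks of both classes.

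Without the block 5 member genes rose. Mdc1, a scaffold of the DNA damage response with peaks of both classes, had 131, 80.5 and 115 CPM in withdrawn G2 cells against 60.1, 45.6 and 70.2 CPM with DOX (0.89 ± 0.20, edgeR adjusted p = 0.041). Every withdrawn library was above every DOX library. Myc, a growth-promoting transcription factor with a class 4 peak downstream of its start, had 23.8, 15.2 and 11.4 CPM in withdrawn late G1 cells against 5.81, 7.31 and 8.63 CPM with DOX (1.21 ± 0.26, edgeR adjusted p = 0.045). It passed in late G1 alone without the block and in all 3 phases with it. Evc, a ciliary protein of Hedgehog signalling, Rragd, a Rag GTPase of nutrient sensing, and Actn3, an alpha-actinin, rose by 0.47, 0.49 and 0.62 in G2 (edgeR adjusted p = 0.0396, 0.046 and 0.0355). Apart from Pvalb, each call named here was lost in at least 1 fit with a library left out. These genes were named because they passed on these same libraries, so nothing further is read from groups that do not overlap.

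**Figure D4:**
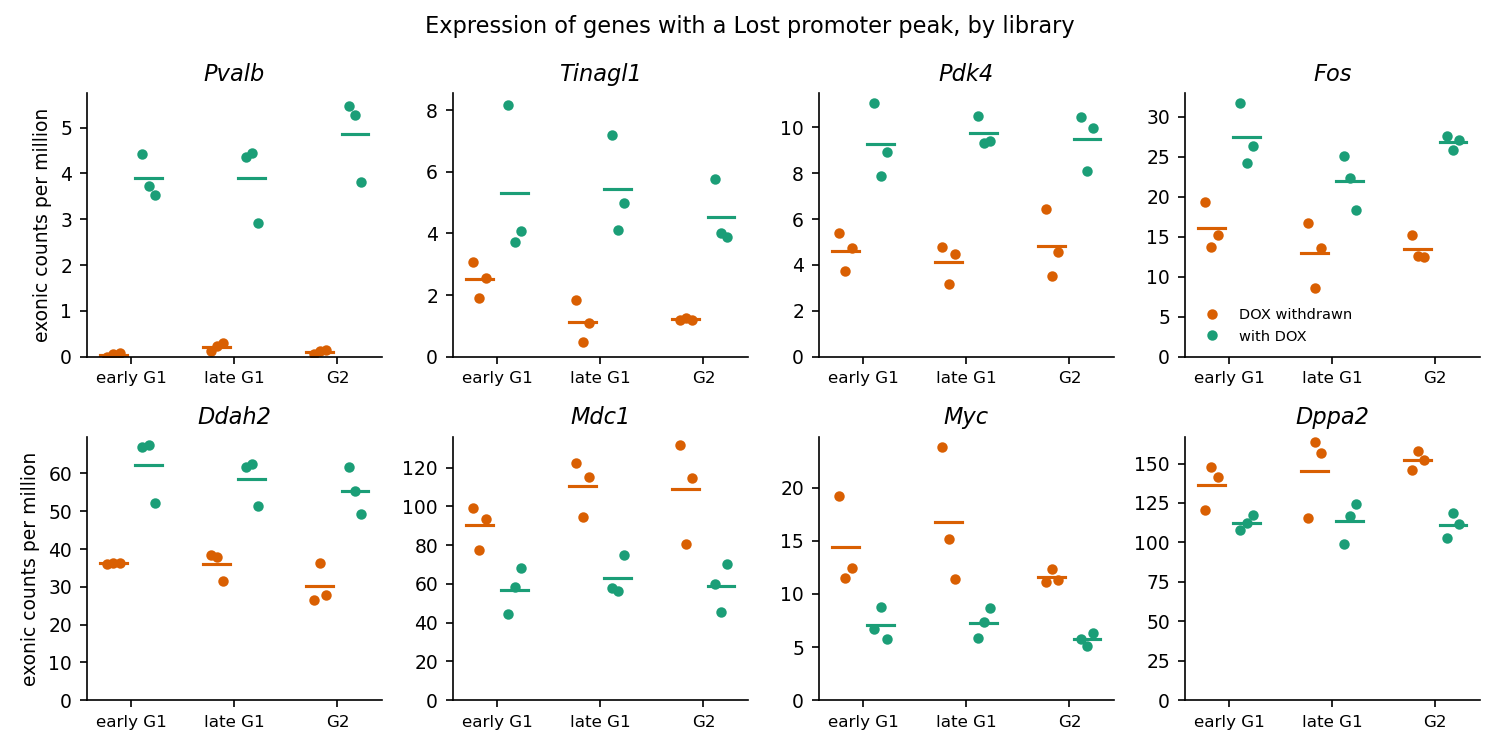
Exonic CPM (vertical axis, from 0, scaled for each gene) in each RNA-seq library by phase (horizontal axis), after DOX withdrawal on the left and with DOX on the right of each pair, with lines at the means of 3 libraries. Pvalb, Tinagl1, Pdk4, Fos and Ddah2 are lower after withdrawal in every phase, and the means of Mdc1, Myc and Dppa2 are higher.

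Summed over the phases, the block gave 98 falls and 54 rises among 928 member genes tested (10.6% and 5.82%, against 5.02% and 6.66% of all genes). Over introns, whose counts come mostly from unspliced RNA, no member gene passed without the block (edgeR, 0.0% of all genes; 79 members, 8.81%, at an unadjusted p under 0.05 against 6.73% of all genes; DESeq2 called 6 of 897 members and 72 of 14966 genes). With it 33 fell and 9 rose of 897 tested (3.68% and 1.0%, against 1.47% and 2.01% of all genes). Of the 94 exonic falls with introns tested, 81 had a negative intronic change and 18 were called there as well, which is 19.1% of the exonic and 54.5% of the intronic falls. Of 52 exonic rises, 43 had a positive intronic change and 6 were called there too. Exonic and intronic counts come from the same libraries, and these overlaps were counted for member genes only. Nothing particular to the members is read from them.

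Of 19 listed core pluripotency genes and partners 7 have a Lost promoter peak (36.8%). Among them Rif1, Pou5f1 and Myc have class 4 peaks and Lin28a, Mycn and Sall4 class 5 peaks. Of 28 naive pluripotency genes 5 have a Lost promoter peak (17.9%), and none of 20 formative and primed genes does, against 4.88% of all genes. The lists are small, and the difference between them was not tested. With the block in G2, 5 of the 7 core members rose, among them Rif1, Myc, Lin28a and Mycn (5.77% of all genes rose).

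Lin28a, an RNA-binding protein that blocks let-7 maturation, changed by 0.38 ± 0.09 with the block in G2, Rif1 by 0.36 ± 0.10 and Mycn by 0.38 ± 0.11 (edgeR adjusted p = 0.0108, 0.029 and 0.03, and 0.084, 0.409 and 0.617 without the block). Pou5f1, which encodes Oct4, had 1580, 1628 and 1339 CPM in withdrawn G2 cells against 1450, 1383 and 1295 CPM with DOX and did not pass (0.14 ± 0.08 with the block, edgeR adjusted p = 0.305), nor did Sall4. Mycn was named after its values were seen.

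Of the naive members, 4 have class 4 peaks (Dppa2, Zfp42, Klf4 and Tcl1) and Nr0b1 a class 5 peak. Dppa2, a SAP-domain protein of early embryos, had 146, 158 and 152 CPM in withdrawn G2 cells against 103, 118 and 112 CPM with DOX, a change of 0.46 ± 0.09 with the block (edgeR adjusted p = 0.00378, and 0.106 without). Its groups do not overlap. Klf4, a Krüppel-like factor, had 34.7, 32.2 and 27.8 CPM against 32.3, 45.6 and 42.2 CPM with DOX and did not pass (-0.33 ± 0.16, edgeR adjusted p = 0.201). Tcl1, a coactivator of Akt kinase, passed with the block in late G1 (-0.47 ± 0.12, edgeR adjusted p = 0.0233) but not in G2, and Zfp42 passed in no phase.

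Among 37 listed genes of oxidative metabolism, long known as targets of ERR receptors, 7 have a Lost promoter peak (18.9%). Of all genes 4.88% have one, and the difference was not tested. They are Pdk4, Atp5o and Uqcrfs1 in class 4 and Slc25a4, Cpt1b, Sdhb and Esrrg in class 5. With the block, 3 of the 5 tested in G2 fell and none rose, while 5.44% of all genes fell and 5.77% rose. Besides Pdk4 these were Slc25a4, the mitochondrial ADP/ATP carrier (185, 166 and 144 CPM after withdrawal against 252, 194 and 182 CPM with DOX; -0.34 ± 0.09), and Sdhb, the iron-sulfur subunit of succinate dehydrogenase (-0.28 ± 0.09; edgeR adjusted p = 0.0211 and 0.0408). The groups of libraries overlap for Slc25a4, and neither passed without the block (edgeR adjusted p = 0.443 and 0.237). Uqcrfs1 and Atp5o, subunits of complex III and ATP synthase, did not pass in G2 (-0.26 ± 0.10 and -0.05 ± 0.09 with the block), and Cpt1b and Esrrg were below the filter on low counts in that fit. Sdhb, Uqcrfs1 and, below, Bhmt, Msrb2 and Rrn3 were named after their values were seen.

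In the other lists few genes changed. Members made up 18.75% of the G2/M, 10.4% of the mitochondrial ribosomal protein, 10.0% of the immediate-early and 9.4% of the G1/S genes. They made up 6.56% of the histone, 3.61% of the cytosolic ribosomal protein and 3.33% of the chromatin remodeller genes. Of all genes 4.88% are members, and these differences were not tested. Cell-cycle members were Cdc45, Rrm1 and Pole of 32 G1/S genes and 6 of 32 G2/M genes, among them Cenpa, Cenpf, Bub1b and Mad2l1, and none of these 9 passed in any phase, with or without the block; Cenpf passed with it in the sum over phases (0.43, edgeR adjusted p = 0.0223). Of 77 mitochondrial ribosomal protein genes 8 are members and 1, Mrpl43, fell with the block in G2 (-0.37 ± 0.10, edgeR adjusted p = 0.0218; named after its values were seen). Members were also 3 of 83 cytosolic ribosomal protein genes, 4 of 61 histone genes, Ash2l of 30 chromatin remodellers and none of 33 splicing and processing genes, and none passed in G2 with the block. Of 20 immediate-early genes Fos fell and Dusp1 did not pass (0.05 ± 0.15 with the block in G2).

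Gata6, a regulator of primitive endoderm with a class 4 peak, was the only member among the markers of other cell types. It had 0.414, 0.401 and 0.725 CPM in withdrawn G2 cells against 1.19, 1.73 and 1.67 CPM with DOX, so the groups do not overlap, and it changed by -1.58 ± 0.38 with the block (edgeR adjusted p = 0.0134, and 0.0713 without). The 7 primitive endoderm markers together summed to 5.18 to 15.3 CPM after withdrawal and 8.15 to 13.5 CPM with DOX, and their part in the Gata6 value was not tested. Bhmt, whose promoter motif is printed above, had 0.223, 0.229 and 0.207 CPM in withdrawn G2 cells against 1.07, 0.545 and 1.46 CPM with DOX, and changed by -2.25 ± 0.50 with the block (edgeR adjusted p = 0.00907, and 0.0882 without). Msrb2 and Rrn3 did not pass in G2 (0.03 ± 0.14 and -0.07 ± 0.08 with the block), and Oxt, Clec2d and Ccl20 were below the filter.

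Between phases with DOX, no member gene passed. Neither G2 against early G1 nor late G1 against early G1 gave a call among the 897 members or among all genes (0.0%), with or without the block or by DESeq2. At an unadjusted p under 0.05 G2 had 2.56% of members and 2.26% of all genes, and late G1 1.0% and 0.965%, without the block. With it G2 had 7.47% of members and 6.61% of all genes, and late G1 3.79% and 3.01%. Small differences can be missed with 3 libraries a group, so the lack of calls does not show equal levels.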

How the data were processed

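Esrrb ChIP-seq (12 libraries) and RNA-seq (18 libraries) of mouse ES cells were analysed. The authors deposited exonic and intronic read counts per gene, raw per the values, and peak heights that are log2 RPKM (reads per kb of peak scaled to library size), with a class for each peak; its columns labelled noco were read as mitosis. The submitters' processing notes name mm9, CASAVA 1.8, Bowtie and DESeq2; not given in the sources used here: peak caller, class definition, annotation and strandedness. Overlapping and antisense genes are therefore uncertain. Of 20300 gene symbols, 27 that had become dates were restored.

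Counts were tested with edgeR 4.0.16 (quasi-likelihood, TMM, filterByExpr; R 4.3.3) in one fit over the 6 groups of phase and DOX state, and on counts summed over phases. Heights, being log2 values, were tested with limma 3.58.1 with trend, with peaks without a read set to 0.9 read as deposited; whole reads were recovered for 100% of values within 0.05 read and used in an added edgeR fit. SEs of edgeR changes are the change over the root of its F value. Both fits were tested on simulated data. p-values were Benjamini-Hochberg adjusted over all features, threshold 0.05. Same-numbered RNA libraries deviated together (correlations of 0.114 to 0.616, all above 0.1), so the replicate block is printed where it changes a call.

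The text names the highest 8 peaks of each class by interphase height, all member genes called without the block, and listed genes; others are marked as named after their values were seen. Members and lists were chosen with earlier results of these data known. Alternatives were other scaling, no filter, DESeq2 1.42.0, a 500 bp limit, left-out libraries and no trend. CPM is not compared between genes because lengths were not used here. Intervals cover counting error only. Some results are not reported here.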

Additional observations from a re-analysis of the deposited data

Results flagged for a closer look

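Among 38 groups of 4 ChIP-seq libraries checked, 2 held a library far from the other 3, and chance alone gives about 1 in 20. The median height of all members in mitosis replicate 1 with DOX was -1.45, against -0.44 to -0.28 in the other 3 mitosis libraries with DOX, a gap of 0.865 of the range. The class 5 peak at Gm7325 had -2.23 in the same library and -1.18 to -0.99 in the others, a gap of 0.85 of the range.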

How the results depend on the processing

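With a limit of 500 bp, which leaves fewer members, the calls were 0 in early G1, 2 in late G1, 7 in G2, 0 in the phase sum, 406 for interphase withdrawal and 84 for mitosis withdrawal, and class 4 made up 55.2%. The replicate block gave 65, 125 and 144 calls in early G1, late G1 and G2, 152 in the sum and 42 over introns; DESeq2 gave 24, 41, 55, 60 and 6 in the same order. Without the low-count filter the sum gave 11. Leaving out 1 library gave 1 to 2 calls in early G1, 1 to 6 in late G1, 2 to 18 in G2, 1 in the sum, 913 to 964 for interphase withdrawal and 0 to 491 for mitosis withdrawal, and a median of mitosis minus interphase with DOX of -2.48 to -1.86. Median centring gave 23 calls for interphase and 0 for mitosis withdrawal, and leaving out the lowest 25% of peaks 617 for interphase, which is all 617 members then tested. For mitosis withdrawal, limma without trend gave 14, dropping the E14Tg2a libraries 13, and edgeR on reads, added after seeing the data, 0. The motif share, void for the set, was 1.67%, with TCAAGGTCA 0.771% and with AAGGTCA 7.84%. Some changes that were called in no fit reversed when 1 library was left out: Zfp42 (-0.36 to 0.10), Atp5o (-0.10 to 0.0228), Bub1b (-0.11 to 0.0208), Mad2l1 (-0.0015 to 0.0631), Dusp1 (-0.0541 to 0.16) and Ash2l (-0.0771 to 0.0366; 0.002 without the filter). Of 32 calls of a named gene in a comparison without the block, all 32 were also called with other scaling, DESeq2 and the block, and 25 without the filter. Except for the 500 bp limit and the omission of low peaks, both of which leave fewer members, the cause was not tested. Shallow withdrawn ChIP libraries limit what mitosis withdrawal can show.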
